A study of Mus musculus with 23 samples.

Results

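MHC class II presentation genes were followed in 23 melanoma tumors. The genes were the 7 rows of the count table with the symbols H2-Aa, H2-Ab1, H2-Eb1, Cd74, Ciita, H2-DMa and H2-DMb1, out of 56748 genes listed. In these tumors the 7 genes differed up to 98.1-fold in summed level from tumor to tumor, rose and fell together, and were not called different between any treated group and its control. The tumors grew from B16-F1 cells, a melanoma line from C57BL/6 mice, placed under the skin of DBA/2J mice of 6 to 8 weeks. CONTROL_IP received saline into the peritoneum, PTX_IP received pentoxifylline (PTX, a methylxanthine) at 60 mg/kg, NCTD_IP received norcantharidin (NCTD, a demethylated form of cantharidin) at 3 mg/kg, and MIX_IP received both at these doses, with 2 tumors in each group. CONTROL_IT received DMSO into the tumor, and PTX_IT, NCTD_IT and MIX_IT received the same doses by that route, with 4 tumors in each of these groups except PTX_IT, which had 3. Every group therefore carried the same cell line in the same host strain, and each route had its own vehicle and its own batch label, so that route, vehicle and batch cannot be told apart.

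Class II molecules present peptides from the endosomes of professional antigen-presenting cells to CD4 T cells. H2-Aa and H2-Ab1 encode the alpha and beta chains of I-A, and H2-Eb1 encodes the beta chain of I-E. Cd74 is the invariant chain, which guides new class II molecules to the endosomes and fills their groove until proteases remove it. H2-DMa and H2-DMb1 form H2-DM, which exchanges the remaining fragment for other peptides. Ciita is the coactivator that turns the whole set on. It is made constitutively in dendritic cells and B cells, and interferon gamma induces it in macrophages and in many other cells, melanoma cells among them.

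H2-Aa, H2-Ab1, H2-Eb1, H2-DMa and H2-DMb1 lie within the MHC on chromosome 17 (GRCm39), from H2-DMa at 34338515 to 34358075 on the plus strand to H2-Eb1 at 34524841 to 34535648 on the plus strand. H2-Aa lies on the minus strand at 34501718 to 34506797. Ciita lies on chromosome 16 at 10297923 to 10346282 on the plus strand, and Cd74 lies outside the MHC on another chromosome. All 7 are annotated as protein-coding. H2-DMa overlaps Brd2 on the opposite strand, Ciita overlaps Dexi and H2-Eb1 overlaps Gm20513, and H2-DMb1 has a close paralog, H2-DMb2, beside it. The strand setting of the counting is not given in the sources used here, so reads shared with these neighbors cannot be told apart.

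Ciita does not bind DNA by itself. It is recruited by RFX, which binds the X box of class II promoters, and by NF-Y, which binds the Y box. RefSeq promoter entries (GRCm38.p6) were matched for 4 of the 7 genes, H2-Aa, H2-Eb1, H2-DMa and H2-DMb1. The last 150 bases before the annotated start are shown for the 3 whose window held either set of letters, because these genes moved together in the tumors. Capitals mark a Y box core (TGATTGG) and an X box core (AACNGATG), both searched on either strand. The letters were settled after the members' promoters had been read and other patterns tried, so the matches are a description.
H2-Aa, chr17:34287824-34287973, minus strand: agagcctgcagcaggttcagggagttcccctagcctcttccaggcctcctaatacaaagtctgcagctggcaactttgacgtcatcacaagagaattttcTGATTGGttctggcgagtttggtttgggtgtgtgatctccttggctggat
H2-Eb1, chr17:34305717-34305866, plus strand: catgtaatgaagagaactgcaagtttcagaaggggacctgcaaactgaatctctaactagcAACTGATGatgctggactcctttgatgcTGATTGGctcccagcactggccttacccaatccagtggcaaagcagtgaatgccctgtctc
H2-DMb1, chr17:34153041-34153190, plus strand: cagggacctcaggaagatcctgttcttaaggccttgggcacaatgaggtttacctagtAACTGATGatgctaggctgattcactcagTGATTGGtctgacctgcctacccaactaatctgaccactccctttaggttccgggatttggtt

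The Y box core began at position -50 from the start in H2-Aa, at -61 in H2-Eb1 and at -63 in H2-DMb1. The X box core began at -89 in H2-Eb1 and at -92 in H2-DMb1, with 20 and 21 bases between it and the Y box core. These exact letters for an X box were not in the window of H2-Aa, and neither motif was in the 2 windows listed for H2-DMa. Whether either of these 2 windows is the promoter from which H2-DMa was read in the tumors was not tested. Their lack of a motif therefore says nothing about that promoter. Over all 32851 RefSeq promoter windows of 300 bases, 7.82% held the Y box core, 2.32% held the X box core and 0.186% held both.

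The total count per tumor ran from 2861578 to 6702374, so that 3 counts corresponded to 0.449 to 1.04 CPM. CPM, the usual counts scaled to library size, were corrected here for library composition by TMM in edgeR. The melanocyte lineage markers, which define the labelled tumor type, summed to between 15319 and 37163 CPM and were present in every tumor. The design text describes sex-matched groups, but the host-derived transcripts of the sex chromosomes separated the IT groups. Xist, made in female cells, was at 1.28 to 13.6 CPM in the 7 NCTD_IT and PTX_IT tumors and at 0 to 0.566 CPM in the 8 CONTROL_IT and MIX_IT tumors, whereas the Y-linked Ddx3y was at 1.03 to 15.5 CPM in the latter and at 0 to 0.294 CPM in the former. In the IP groups, Xist was above 0 only in CONTROL_IP replicate 2, at 8.26 CPM. Host sex and the NCTD or PTX treatment therefore cannot be told apart in the IT tumors, whereas CONTROL_IT and MIX_IT were alike in this respect.

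The chains of I-A showed the range most clearly. H2-Aa was at 1249 and 2081 CPM in CONTROL_IP, 1600 and 2144 CPM in NCTD_IP, 192 and 3094 CPM in PTX_IP, and 479 and 2510 CPM in MIX_IP. Among the IT tumors it was at 26.5, 2427, 351 and 289 CPM in CONTROL_IT replicates 9 to 12. It was at 1617, 880, 687 and 4656 CPM in NCTD_IT replicates 17 to 20. PTX_IT and MIX_IT held tumors at both ends, and no IT group was free of overlap with any other. H2-Aa was at 2161, 3870 and 106 CPM in PTX_IT replicates 13, 15 and 16. In MIX_IT replicates 21 to 24 it was at 186, 3173, 20.1 and 1429 CPM. The control group and the MIX_IT group each spanned much of the range of the series on the log scale, while the 4 NCTD_IT tumors lacked the low end.

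H2-Ab1, the partner chain, ran from 28.8 CPM in CONTROL_IT replicate 9 to 1265 CPM in NCTD_IT replicate 20. In CONTROL_IT it was at 28.8, 580, 140 and 108 CPM, and in NCTD_IT at 521, 238, 218 and 1265 CPM. It was at 723, 1031 and 51.4 CPM in PTX_IT and at 59.5, 724, 40.1 and 461 CPM in MIX_IT. Much the same tumors were high and low as for H2-Aa. H2-Eb1, the I-E beta chain, ran from 3.88 CPM in MIX_IT replicate 23 to 629 CPM in NCTD_IT replicate 20, with a median of 202 CPM.

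Cd74 ran from 1.46 CPM in MIX_IT replicate 23 to 157 CPM in PTX_IP replicate 3. It was at 3.60, 74.7, 26.2 and 19.2 CPM in CONTROL_IT, 44.7, 14.98, 10.7 and 110 CPM in NCTD_IT, 95.6, 54.1 and 3.60 CPM in PTX_IT, and 3.43, 80.9, 1.46 and 49.0 CPM in MIX_IT. In the IP groups it was at 34.4 and 108 CPM in CONTROL_IP, 36.4 and 95.5 CPM in NCTD_IP, 157 and 11.1 CPM in PTX_IP, and 108 and 25.5 CPM in MIX_IP. The treated ranges of each route overlapped with those of the control.

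Ciita, the coactivator, had its highest value in a control tumor given DMSO, 71.9 CPM in CONTROL_IT replicate 10, and its lowest in another of the same group, 3.60 CPM in replicate 9. The 2 others of that group were at 17.4 and 11.3 CPM. Ciita was at 36.2, 9.40, 16.9 and 70.4 CPM in NCTD_IT, at 46.0, 56.1 and 8.48 CPM in PTX_IT and at 7.28, 49.3, 4.13 and 39.8 CPM in MIX_IT. The 4 IT groups overlapped in Ciita as in the other genes. Of the peptide exchange pair, H2-DMa ran from 0 counts in MIX_IT replicate 23, which allows up to 0.728 CPM, to 151 CPM in MIX_IT replicate 22. H2-DMb1 ran from 1.70 to 130 CPM. Apart from that 0, the lowest count behind any value was 6, for Cd74 in MIX_IT replicate 23.

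**Figure D1:**
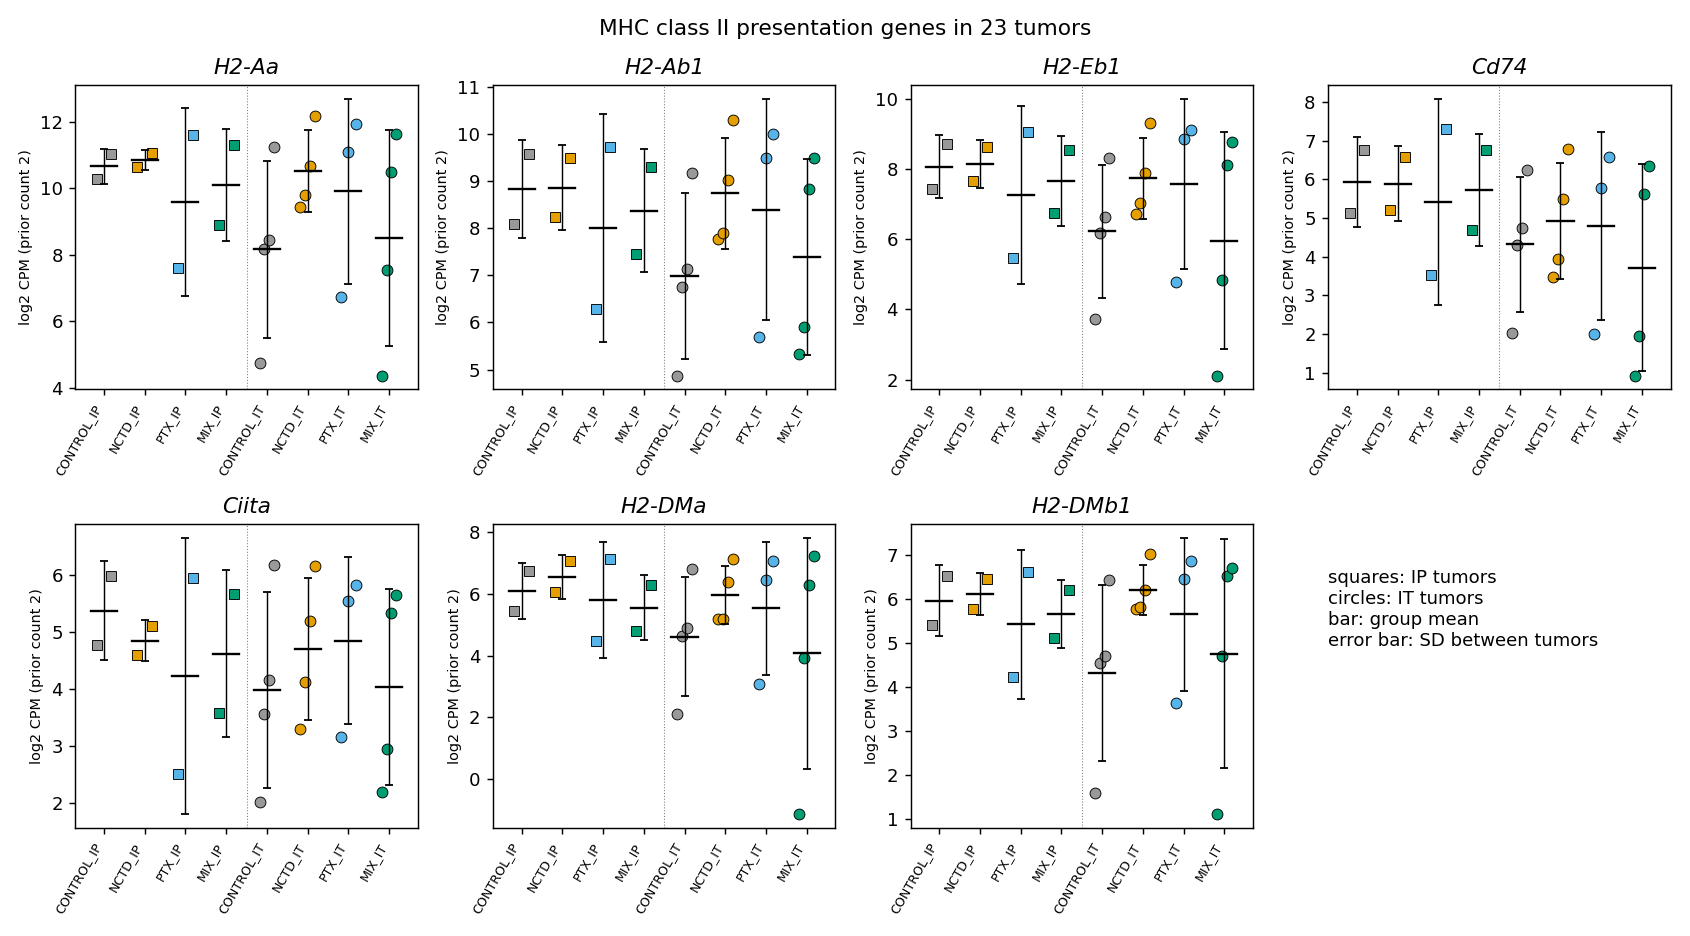
Level of each class II gene (log2 CPM, prior count 2) in each of the 23 tumors, by group, with squares for IP and circles for IT, bars for group means and error bars for the SD between tumors. In CONTROL_IT and MIX_IT each gene spreads over most of its whole range, and the groups of each route overlap for every gene.

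The spread within groups placed these genes among the most variable of all. The pooled SD of log2 CPM between tumors of the same group was 2.37 for H2-Aa, 2.18 for H2-DMa, 2.07 for H2-Eb1, 2.01 for Cd74, 1.77 for H2-Ab1, 1.71 for H2-DMb1 and 1.54 for Ciita (15 degrees of freedom). The median over 13395 genes past the filter on low counts was 0.441. H2-Aa ranked 7 by this spread and Ciita, the lowest of the 7, ranked 125, above 99.07% of genes. Group membership accounted for 11.01% (Ciita) to 21.2% (H2-Aa) of the variance of each gene over the 23 tumors, against a median of 34.5% over all genes. This share was not corrected for the number of groups. Splitting 23 tumors into 8 groups gives a share well above 0 even without any difference between groups.

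**Figure D2:**
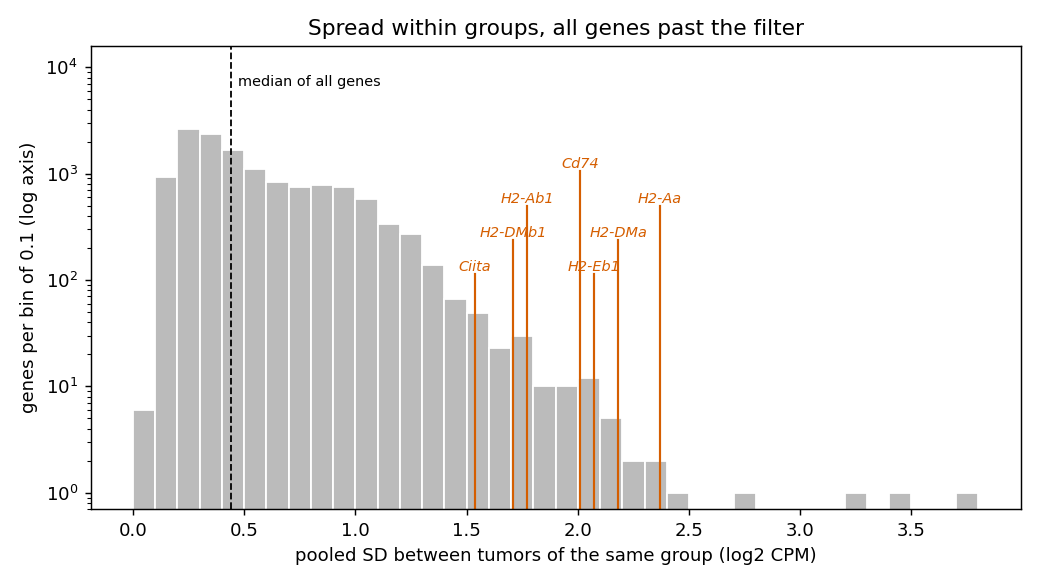
Number of genes (log axis) by the pooled SD of log2 CPM between tumors of the same group, for all 13395 genes past the filter, with the 7 class II genes marked in color. The dashed line marks the median of all genes at 0.441, and the class II genes lie between 1.54 and 2.37.

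Because every tumor of a group received the same treatment, treated and control tumors of a route were compared in edgeR with its quasi-likelihood test and Benjamini-Hochberg adjustment over all genes tested. By the IP route none of the 7 genes was called. In NCTD_IP against CONTROL_IP 0 of 7 had an adjusted p below 0.05, as for all 12424 genes tested (0%), and 0 of 7 had an unadjusted p below 0.05 (3.59% of all genes). In PTX_IP the same counts were 0 of 7 (0% of all genes) and 0 of 7 (5.3%), and in MIX_IP they were 0 of 7 (0%) and 0 of 7 (2.94%). Fitted log2 fold changes above 0 were found for 4 of 7 genes in NCTD_IP (49.1% of all genes), 2 of 7 in PTX_IP (51.2%) and 0 of 7 in MIX_IP (48.8%). Their median was 0.02 in NCTD_IP, -0.05 in PTX_IP and -0.30 in MIX_IP, where the median over all genes was -0.01, 0.01 and -0.01. By the group mean of log2 CPM, PTX_IP lay below CONTROL_IP for each gene, as for H2-Aa (9.59 against 10.7). This held also for Cd74 (5.42 against 5.94) and H2-DMa (5.80 against 6.10), whose fitted values were above 0. The 95% interval of H2-Aa ran from -2.09 to 2.44 on the log2 scale in NCTD_IP and from -2.41 to 2.12 in MIX_IP, so that changes of several-fold in either direction remained inside it. None of the 7 genes was separated from the control without overlap in any of the 3 comparisons, in which 2 tumors stood against 2. The share of all genes wholly above the control was 16.3% in NCTD_IP, 15.7% in PTX_IP and 17% in MIX_IP, and the share wholly below it was 18%, 16.1% and 18.9%.

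By the IT route most fitted values lay above the control, except Ciita in MIX_IT, and none was called different from it. In NCTD_IT against CONTROL_IT 0 of 7 genes were called by edgeR's adjusted p, beside 171 of 12480 genes (1.37%), and 0 of 7 had an unadjusted p below 0.05 (21.6% of all genes). All 7 fitted log2 fold changes were above 0, from 0.34 for Ciita to 1.37 for H2-Ab1 with a median of 1.11, where 52% of all genes were above 0 and their median was 0.03. H2-Ab1 had a log2 fold change of 1.37 ± 0.99 (SE, 95% interval -0.73 to 3.48) and the smallest edgeR adjusted p of the 7, 0.441. For H2-Aa the value was 1.33 ± 1.27 (SE, 95% interval -1.35 to 4.01) with an edgeR adjusted p of 0.571. The 7 genes vary together and are not 7 independent observations of a direction. None of them was separated from the control without overlap, beside 7.82% of genes wholly above it and 8.95% wholly below it.

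PTX_IT gave nearly the same picture, 0 of 7 called (0% of all genes) and 0 of 7 at an unadjusted p below 0.05 (6.35%), with 7 of 7 values above 0 (51.6% of all genes) and a median of 1.04. H2-Ab1 was again highest, at 1.47 ± 1.05 (SE, 95% interval -0.75 to 3.70) with an edgeR adjusted p of 0.829. In MIX_IT 0 of 7 were called (0% of all genes) and 0 of 7 had an unadjusted p below 0.05 (13%), with 6 of 7 values above 0 (51.1%) and a median of 0.55. There Ciita was at -0.06 ± 0.86 (SE) and H2-DMb1 at 0.69 ± 0.89 (SE), and the smallest edgeR adjusted p of the 7 was 0.789. The direction in MIX_IT depended on the scale. By the group mean of log2 CPM, MIX_IT lay below CONTROL_IT for H2-Eb1 (5.96 against 6.22), Cd74 (3.715 against 4.32) and H2-DMa (4.07 against 4.61). On that scale it lay above CONTROL_IT for H2-Aa, H2-Ab1, Ciita and H2-DMb1. No gene lay wholly above or below the control in PTX_IT (3.81% and 4.15% of all genes) or in MIX_IT (4.93% and 4.98%).

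Single tumors set the size of these values. The median log2 fold change over the 7 genes in NCTD_IT was 2.16 without CONTROL_IT replicate 10, the high control tumor, 0.74 without CONTROL_IT replicate 9, the low one, and 0.32 without NCTD_IT replicate 20. In PTX_IT it was 2.06, 0.65 and, without PTX_IT replicate 15, 0.55. In MIX_IT it was 1.66 without CONTROL_IT replicate 10, 0.17 without replicate 9, 0.94 without MIX_IT replicate 23, 0.91 without MIX_IT replicate 21 and -0.46 without MIX_IT replicate 22. Leaving out CONTROL_IT replicate 11 or 12 or MIX_IT replicate 24 put MIX_IT at 0.38, 0.35 and 0.34. With the log2 CPM of Xist in the model the median turned to -3.26 in NCTD_IT and -3.10 in PTX_IT, with all 7 genes below 0 and none called, and was 0.95 in MIX_IT. In that model host sex and treatment are nearly collinear for NCTD_IT and PTX_IT, and the standard error of H2-Aa in NCTD_IT rose from 1.27 to 2.73. Without edgeR's filter on low counts, 5 of the 7 genes in NCTD_IT (4.43% of all genes) and 4 in PTX_IT (0.826%) were called, and the standard error of H2-Aa in NCTD_IT was then 0.221, beside a pooled SD of 2.37 between tumors of the same group.

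**Figure D3:**
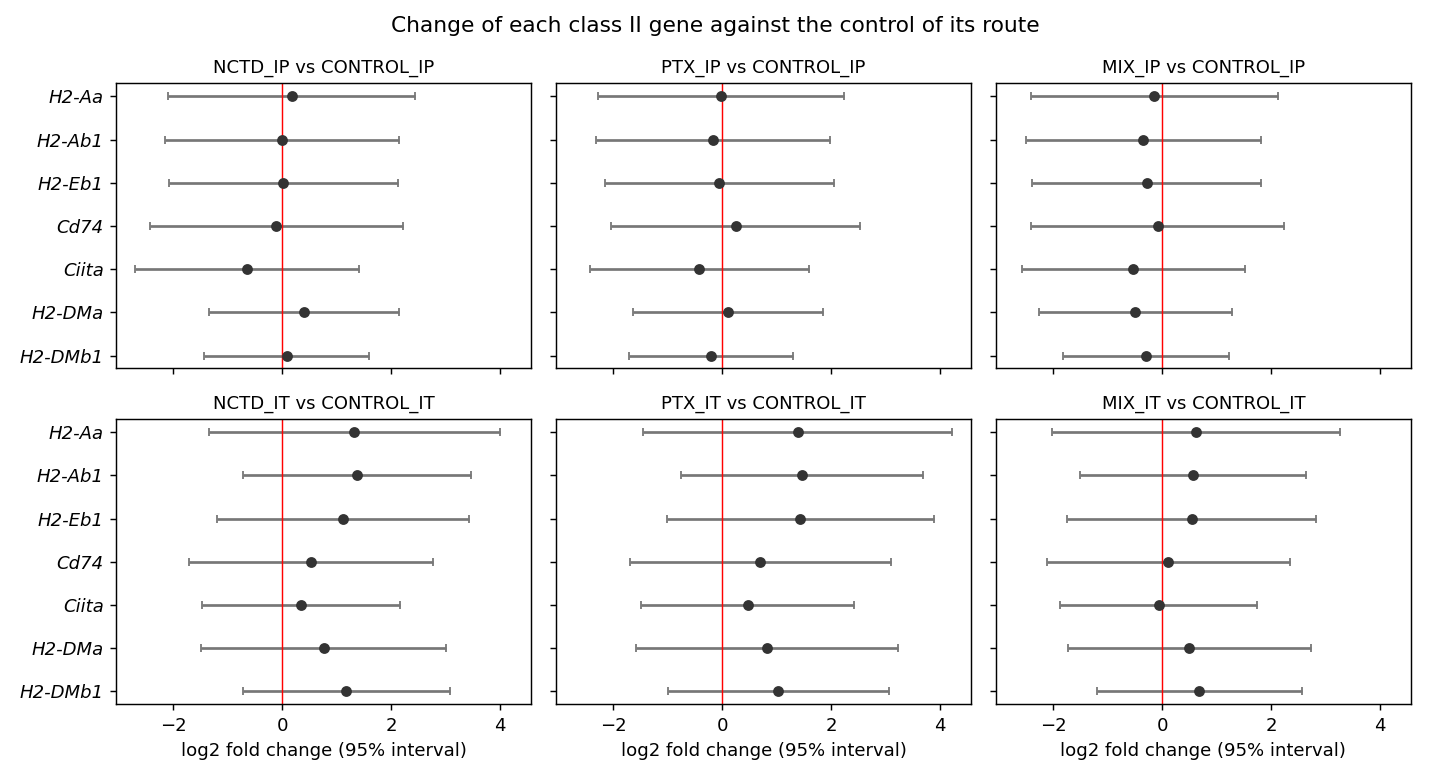
Fitted log2 fold change of each class II gene against the control of its route (edgeR quasi-likelihood), with 95% intervals, for the 3 treatments by each route. The IP values lie between -0.64 and 0.41 and the IT values between -0.06 and 1.47, and every interval crosses 0.

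The treated groups were then compared with each other, at the same doses and within a route. In all 6 such comparisons 0 of 7 genes were called by edgeR's adjusted p, where 0% of all genes were called except in MIX_IT against NCTD_IT (0.00801%), and 0 of 7 had an unadjusted p below 0.05. The share of all genes at an unadjusted p below 0.05 was 6.02% in MIX_IT against NCTD_IT, 3.75% in MIX_IT against PTX_IT, 3.87% in NCTD_IT against PTX_IT, 4.27% in MIX_IP against NCTD_IP, 4.94% in MIX_IP against PTX_IP and 2.91% in NCTD_IP against PTX_IP. The median log2 fold change over the 7 genes was -0.49 in MIX_IT against NCTD_IT, -0.59 in MIX_IT against PTX_IT and -0.10 in NCTD_IT against PTX_IT. By the IP route it was -0.31 in MIX_IP against NCTD_IP, -0.18 in MIX_IP against PTX_IP and 0.16 in NCTD_IP against PTX_IP. By the median CPM of H2-Aa the order in the IT tumors was CONTROL_IT (320 CPM), MIX_IT (807 CPM), NCTD_IT (1248 CPM) and PTX_IT (2161 CPM), and no pair in this order differed beyond its spread. In the IP tumors the order was MIX_IP (1495 CPM), PTX_IP (1643 CPM), CONTROL_IP (1665 CPM) and NCTD_IP (1872 CPM), with the same result. A test of any difference among the 4 groups called 0 of 7 genes by the IP route (0% of all genes) and 0 of 7 by the IT route (0.024%), and 0 of 7 had an unadjusted p below 0.05 (3.27% and 12.9% of all genes).

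Whether the change against control differed between the 2 routes was tested in a model of all 23 tumors. Route, vehicle and batch cannot be told apart in this test. Host sex also differed from the control in NCTD_IT and PTX_IT and differed within CONTROL_IP, so it is mixed into the values as well. The fold change by the IT route minus that by the IP route had a median over the 7 genes of 1.10 for NCTD, 1.25 for PTX and 0.86 for MIX on the log2 scale. None of the 7 genes was called by edgeR's adjusted p for any of them (0% of 13395 genes in each), and the smallest edgeR adjusted p was 0.795. Unadjusted p below 0.05 was reached by 0 of 7 genes, beside 10.8% of all genes for NCTD, 5.23% for PTX and 7.44% for MIX.

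What the 7 genes shared was their pattern over tumors. Across the 21 pairs of genes, Pearson's r over the 23 tumors lay between 0.868 and 0.985 with a median of 0.942, and Spearman's rho between 0.874 and 0.988. The largest Benjamini-Hochberg adjusted permutation p over the 21 pairs was 1e-05, the smallest that 100000 permutations can give. After the mean of each group was subtracted the median r was 0.963. It was 0.965 among the 8 IP tumors (largest adjusted permutation p 0.00198) and 0.947 among the 15 IT tumors. Without the 2 tumors farthest from the median on the x axis, which were CONTROL_IT replicate 9 and MIX_IT replicate 23 for 6 of the 7 genes, r lay between 0.861 and 0.992 with a median of 0.947. The total count of a tumor had a rho of 0.209 with the mean of the 7 genes.

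The other genes of the class II region followed the same tumors. H2-Ea, the alpha chain of I-E, is of interest because C57BL/6 mice carry a deletion in its promoter and do not make it, whereas DBA/2J mice do. H2-Ea was at 12.8 and 26.1 CPM in CONTROL_IP and at 1.03, 18.2, 4.79 and 5.09 CPM in CONTROL_IT. It reached 49.0 CPM in PTX_IP replicate 3 and was at 0 counts in MIX_IT replicate 23. Its rho with the mean of the 7 genes was 0.875 over the 23 tumors, that of H2-DMb2 was 0.887 and that of H2-Eb2, a second I-E beta gene, was 0.862. H2-Ob was at 0 to 3.29 CPM, and H2-Oa, the partner chain of H2-O, had counts in 1 tumor only, MIX_IT replicate 22, at 1.09 CPM. None of the 3 that passed the filter in the IT tumors was called against CONTROL_IT. From which cells the class II reads came, and how reads of the host haplotype align to the C57BL/6 reference, was not tested.

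The 10 genes whose log2 CPM followed the mean of the 7 most closely, out of 13388 compared, were H2-D1 (rho 0.980), Tmem106a, Axl, C4b, AW112010, Trim12c, Trbc2, Cxcl9, Ly6a and Cd8a (rho 0.962). H2-D1 is a class I heavy chain, Cxcl9 a chemokine induced by interferon gamma, Trbc2 a constant segment of the T cell receptor beta chain and Cd8a a coreceptor of cytotoxic T cells. A rho above 0.9 was found for 126 genes, and the median over all genes was 0.01. These values describe 23 libraries that all genes share and carry no p. With group means subtracted, each of the 10 kept a rho of at least 0.938.

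Among the factors that act at class II promoters, likeness was uneven. Irf8, a factor of myeloid cells and B cells, had a rho of 0.921 with the mean of the 7 genes. Creb1 had -0.33 and Nfyb, a subunit of NF-Y, had -0.67. Of the 9 that passed the filter in the IT tumors, 1 was called in NCTD_IT against CONTROL_IT (1.37% of all genes), Irf4, a factor of lymphocytes, dendritic cells and melanocytes. Irf4 was at 13.7, 12.3, 12.1 and 18.1 CPM in NCTD_IT and at 3.35, 3.07, 6.05 and 4.53 CPM in CONTROL_IT, a log2 fold change of 1.72 ± 0.33 (SE, edgeR adjusted p = 0.028). Host sex and treatment cannot be told apart in this call. Irf4 was at 7.19 to 13.1 CPM in PTX_IT and at 5.78 to 11.2 CPM in MIX_IT, and was not called there (0% of all genes in each). Irf4 did not follow the class II genes closely, with a rho of 0.457.

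Of the 11 processing genes, 0 were called in that comparison by edgeR (1.37% of all genes) and 2 were higher at an unadjusted p below 0.05, where 21.6% of all genes reached that p in either direction. The endosomal proteases differed in likeness, with a rho of 0.898 for Ctsb, 0.633 for Ctsl and 0.226 for Ctsd. The 15 genes of the interferon gamma axis also gave 0 calls (1.37% of all genes) and 2 higher at an unadjusted p below 0.05 (21.6% of all genes in either direction). Their median log2 fold change was 0.60, and they summed to between 575 and 3528 CPM. Their sum had a rho of 0.959 with the mean of the 7 genes and 0.973 after group means were subtracted. Gbp2 had a rho of 0.927 and Irf1 of 0.792.

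Marker lists of cell types moved with the class II level to differing degrees. The summed T cell markers had a rho of 0.952 with the mean of the 7 genes, the 6 leukocyte markers 0.931, the 10 macrophage markers 0.86 and the B cell markers 0.765, whereas the fibroblast markers had 0.011, the endothelial markers 0.052, the melanocyte lineage markers 0.254 and the keratinocyte markers 0.405. The melanocyte lineage markers differed among themselves, from a rho of -0.09 for Mitf to 0.56 for Pmel and 0.79 for Mlana. Dct, the most abundant of them, had 0.06. The B cell sum of 1.33 to 18.4 CPM came mostly from Ighm, while the defining markers Ms4a1 and Cd79a had at most 1 count in any tumor. The dendritic cell sum had a rho of -0.45, and most of that sum was Fscn1, at 44.5 to 143 CPM, a gene that other cells also make and that alone had a rho of -0.73. The 7 other dendritic cell markers compared ran the opposite way, with a rho between 0.234 for Zbtb46 and 0.849 for Clec9a, a marker of cross-presenting dendritic cells. In bulk tumors, fewer cells of a type and less RNA per cell cannot be told apart, and the part of these cell types in the class II level was not tested.

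Against CONTROL_IT, NCTD_IT also had 1 called gene of 7 in the melanocyte lineage list (1.37% of all genes), Mitf, the melanocyte master regulator, at -0.86 ± 0.18 (SE, edgeR adjusted p = 0.0363). Of the 4 endothelial genes tested 1 was called (1.37% of all genes), Emcn, endomucin, at 1.29 ± 0.29 (SE, edgeR adjusted p = 0.0414). Host sex differed between these groups and cannot be told apart from the treatment in these calls. The macrophage markers gave 0 calls of 10 (1.37% of all genes) and 4 higher at an unadjusted p below 0.05 (21.6% of all genes in either direction). Their median log2 fold change was 1.54, and their sum ran from 384 to 1363 CPM in NCTD_IT and from 92.2 to 643 CPM in CONTROL_IT. The T cell sum ran from 8.99 to 107 CPM in NCTD_IT and from 0 to 29.6 CPM in CONTROL_IT. These sums overlapped between the groups, as the class II genes did.

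The 2 tumors with the least class II expression differed in other respects. The 7 genes summed to 81.9 CPM in CONTROL_IT replicate 9 and to 71.4 CPM in MIX_IT replicate 23, against 6998 CPM in NCTD_IT replicate 20, and the T cell markers were at 0 in both. CONTROL_IT replicate 9 also had the lowest macrophage sum of the series, 92.2 CPM, and the lowest fibroblast sum, 106 CPM. MIX_IT replicate 23 had a macrophage sum of 459 CPM, the median of the 23 tumors, together with the highest fibroblast sum, 8542 CPM, and the lowest melanocyte lineage sum, 15319 CPM. Its class II sum per macrophage CPM was 0.155, where the other tumors lay between 0.888 in CONTROL_IT replicate 9 and 6.77 in MIX_IT replicate 22. These tumors were singled out after their values were seen.

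**Figure D4:**
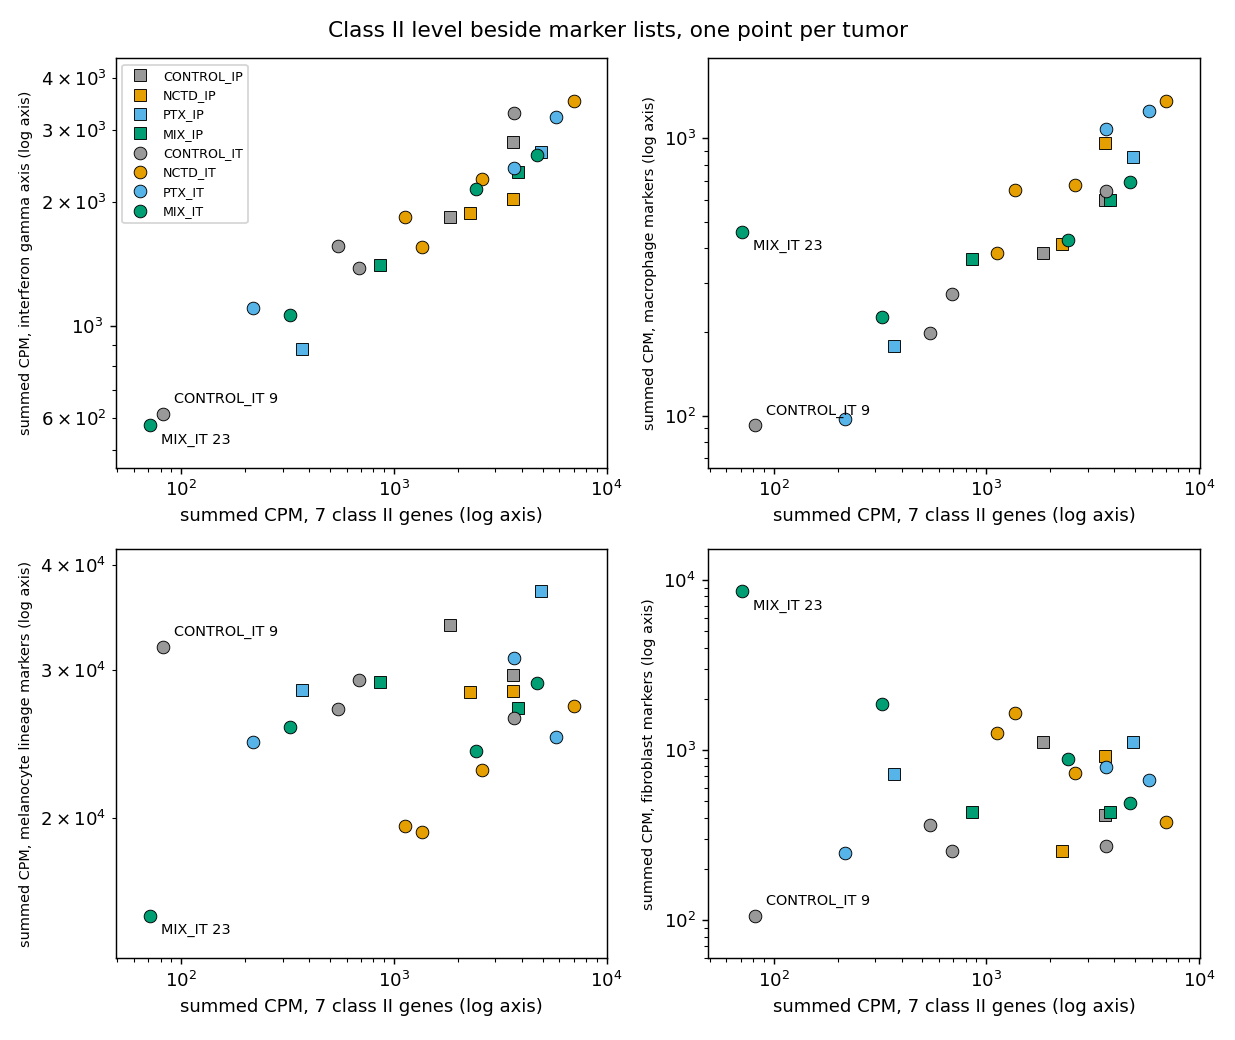
Summed CPM of the 7 class II genes (x axis, log) against summed CPM of the interferon gamma axis and of macrophage, melanocyte lineage and fibroblast markers (y axes, log), with 1 point per tumor, squares for IP and circles for IT. The interferon gamma axis rises with the class II genes from the lowest tumors at 575 and 612 CPM to 3528 CPM, whereas MIX_IT replicate 23 lies apart in the macrophage panel at 459 CPM.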

How the data were processed

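RNA from 23 tumors was sequenced. The authors prepared 3′ mRNA libraries, trimmed reads with Trimmomatic, aligned them to GRCm39 with STAR 2.7.11b and deposited raw counts of reads per gene, without normalization. A count from such a library does not grow with transcript length. Strand and multimapper settings are not given in the sources used here.

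The 7 genes and all gene lists were chosen with earlier results of these data known. Groups came from the labels. Counts were analysed with R 4.3.3, edgeR 4.0.16 (filterByExpr, minimum count 10, minimum total 15; TMM; 1 quasi-likelihood model per route) and DESeq2 1.42.0 as an alternative, two-sided, at a Benjamini-Hochberg adjusted p below 0.05. Nothing marks the tumors as separate experiments beyond their labels, so p-values measure the spread between these samples. Correlations used log2 CPM with a prior count of 2 and 100000 two-sided permutations. The floor of 3 counts covers counting error only, for single libraries. The intervals of the log2 fold changes rest on the standard errors of the quasi-likelihood fits, which take in the spread between tumors. Pairs of tumors in a group differed by more than sampling noise (chi-square per degree of freedom 8.80 to 71.8). The code was tested on simulated counts, where the share of false calls in the IP design was above the nominal level.

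Named genes were all members, called genes of the pathway lists, class II region genes, the 3 most abundant of each pathway list (some are not reported here) and the 10 most alike; marker genes and single tumors named beyond these were chosen after their values were seen.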

Additional observations from a re-analysis of the deposited data

Results flagged for a closer look

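H2-Aa in CONTROL_IT replicate 10 stood apart from the other tumors of its group, at 2427 CPM, where the next highest tumor was at 351 CPM. The gap took up 0.865 of the range of the group, above the 95% critical value of 0.829 for 4 samples. It was taken on CPM and not on the log2 scale used for the spread and the correlations. In log2 CPM the 4 tumors, replicates 9 to 12, were at 4.75, 11.2, 8.46 and 8.18. There the low replicate 9 lay farther from its nearest neighbor than replicate 10 did. This was the only value past its critical value among 21 combinations of the 7 genes with the 3 groups of 4 tumors. Chance gives about 1 in 20 for independent combinations, and these are not independent, because the 7 genes vary together.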

How the results depend on the processing

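No paired analysis was possible because the labels share no replicate number between groups. In the 17 tests of the 7 genes, 0 were called at an adjusted p below 0.05 by edgeR. The same count was found with DESeq2 and with DESeq2 size factors in edgeR. It was also found with only the 2 groups compared and with Xist as a covariate, both run only for the 12 comparisons within a route. With all 23 tumors in the fit it held for these and for the 2 tests of any difference. The difference between routes was not fitted with Xist. The comparisons by the IT route also gave 0 calls in each fit that left out 1 tumor. By the IP route such a fit leaves 1 tumor in a group, which is assumed to vary like the other groups, so that its calls say little about stability. The count at an unadjusted p below 0.05 was also 0 under each of these settings that kept all tumors. Without the filter on low counts, which took the genes tested by the IT route from 12480 to 26878, edgeR called 5 of the 7 genes in NCTD_IT against CONTROL_IT, 4 in PTX_IT against CONTROL_IT, 1 in MIX_IT against NCTD_IT, 2 in MIX_IT against PTX_IT and 4 in the test of any difference by the IT route. It also called 1 gene for the NCTD effect and 3 for the PTX effect between routes. The log2 fold change of H2-Aa in NCTD_IT was 1.32 with the filter off and 1.33 with it on, while its standard error fell from 1.27 to 0.221. Why the error fell was not tested. With Xist as a covariate the median log2 fold change of the 7 genes turned from 1.11 to -3.26 in NCTD_IT and from 1.04 to -3.10 in PTX_IT. It turned from -0.49 to 4.22 in MIX_IT against NCTD_IT and from -0.59 to 4.06 in MIX_IT against PTX_IT, and none was called. Against CONTROL_IP it turned from -0.05 to 0.72 in PTX_IP and from -0.30 to 0.39 in MIX_IP. In NCTD_IP it moved from 0.02 to 0.80, and all 7 genes were above 0 in each of these IP fits. As Xist was above 0 only in CONTROL_IP replicate 2, CONTROL_IP replicate 1 was in effect the only control there. Depth limits the lowest values, where Cd74 rests on 6 counts and H2-DMa on 0, whereas H2-Aa had at least 83 counts in each tumor.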

Other observations

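The balance among the class II genes was also examined, as counts of H2-Aa per count of another member, after the values had been seen. For Cd74 it was 7.36, 32.5, 13.4 and 15 in CONTROL_IT and 36.2, 58.7, 64.1 and 42.5 in NCTD_IT, without overlap. For Ciita it was 7.36, 33.8, 20.2 and 25.5 in CONTROL_IT and 44.7, 93.6, 40.6 and 66.1 in NCTD_IT, also without overlap. On the log2 scale, Cd74 relative to H2-Aa was lower by -1.75 and Ciita by -1.64 in NCTD_IT. An exact two-sided permutation test gave p = 0.0286 for each, the smallest that 4 against 4 tumors allow, and 0.257 after Benjamini-Hochberg adjustment over the 18 ratios tested by the IT route. The other 16 ratios overlapped between treated and control tumors. H2-Aa varied more between tumors of a group (pooled SD 2.37) than Cd74 (2.01) or Ciita (1.54), so these ratios can move with the class II level itself. CONTROL_IT held tumors with less class II expression than any NCTD_IT tumor, and host sex differed between these groups. The part of either in the ratios was not tested.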
